A study of Mus musculus with 20 samples.

Results

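Integrins are the cell surface receptors through which fibroblasts hold the extracellular matrix, and focal adhesions are the protein plaques that tie those receptors to the actin skeleton. Transcripts of 36 such genes were followed across 20 RNA-seq libraries of cultured mouse cardiac fibroblasts. The genes were taken from a named list, chosen with earlier results of these data known. They were matched by symbol to the rows of the count table, and all 36 of the 36 listed genes were found. They were 12 alpha subunits and 5 beta subunits of the integrins and 19 cytoplasmic adaptors, out of 55414 genes in the table, 31062 genes with any count and 15624 genes tested. All 36 passed the filter on low counts.

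The libraries came from 5 groups of 4 cultures of passage 2 heart fibroblasts. The treatment protocol describes the cells as Hyal2 fl/fl, whereas the genotype label of every library reads Wild Type C57BL/6J. Hyal2 encodes a hyaluronidase, an enzyme that cuts the matrix polysaccharide hyaluronan. Every culture was starved of serum for 24 h and exposed for 5 h to an adenovirus. Cre_TGFB cultures received Cre virus, which deletes exon 2 of Hyal2, and then TGFB, and GFP_TGFB cultures received a GFP virus and then TGFB. The Hyal2 group received a virus that overexpresses Hyal2, the Cre group received Cre virus, and the GFP group received the GFP virus, all without TGFB. Growth factor was given at 20 ng/mL, and RNA was collected 48 h later. From the protocol's wording it is not clear whether cultures without TGFB were given basic fibroblast growth factor. In every group replicates 1 and 2 are labelled female and replicates 3 and 4 male. Library names of the same replicate number share a prefix, and a replicate number is read here as one cell isolate. Ages are not given in the labels.

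Totals were 38.6 to 104.8 M counts per library. Hyal2 itself stood at 5.37 to 9.14 CPM (counts per 1 M, corrected for library composition by TMM) in Cre_TGFB cultures, 33.4 to 41.1 CPM in GFP_TGFB cultures, 399 to 1419 CPM in Hyal2 cultures, 7.62 to 13.5 CPM in Cre cultures and 36.6 to 44.5 CPM in GFP cultures, which fits the group labels in all 20 libraries; gene counts do not show which exon the reads came from. The fibroblast label was checked against 8 fibroblast markers, of which 8 passed the filter, with summed levels of 33131 to 37224 CPM in Cre_TGFB, 31505 to 38589 CPM in GFP_TGFB, 24524 to 34854 CPM in Hyal2, 25471 to 34561 CPM in Cre and 24873 to 32453 CPM in GFP libraries. The cardiomyocyte list summed to at most 4.67 CPM in any library, with Myh6 at 3 counts or fewer.

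An integrin is a pair of one alpha and one beta subunit, and the pair decides which matrix protein is bound. Alpha subunits that pair with beta1 include receptors for collagen (alpha1, alpha2, alpha10, alpha11), for laminin (alpha3, alpha6, alpha7) and for proteins that carry the peptide RGD, such as fibronectin (alpha5, alpha8, alphav). On the cytoplasmic side, talin and kindlin switch integrins to the binding state, the ILK, PINCH and parvin complex links them to actin, and focal adhesion kinase, paxillin and p130Cas pass signals on. In fibroblasts, TGFB is known as the signal for the change to contractile myofibroblasts, and integrins that hold alphav are known to release TGFB from its latent form in the matrix.

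Stretches of 250 bases upstream of the annotated transcript start are shown for 5 genes on which the results below turn or in which a searched motif was found. Itga5 and Itgb8 are the genes with the most positive and the most negative change with TGFB, Itgb1 is the shared beta subunit, and Fhl2 and Fermt2 were the members whose window held a CArG box. The sequences are from RefSeq on build GRCm38.p6, written 5′ to 3′ on the gene's strand. Capitals mark matches to the CArG box, the site of serum response factor, or to the MCAT element, the site of the TEAD factors.
Itga5, chr15:103366792-103367041, minus strand: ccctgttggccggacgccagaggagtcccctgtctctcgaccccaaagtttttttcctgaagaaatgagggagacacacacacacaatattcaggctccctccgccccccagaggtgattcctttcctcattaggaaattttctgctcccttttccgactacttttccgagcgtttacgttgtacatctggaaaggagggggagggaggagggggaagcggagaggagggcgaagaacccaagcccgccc
Itgb8, chr12:119238277-119238526, minus strand: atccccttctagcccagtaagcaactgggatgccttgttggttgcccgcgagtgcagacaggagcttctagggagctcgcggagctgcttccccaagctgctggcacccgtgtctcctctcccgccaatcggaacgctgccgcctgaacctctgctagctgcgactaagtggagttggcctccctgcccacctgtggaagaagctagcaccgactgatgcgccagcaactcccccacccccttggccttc
Itgb1, chr8:128685404-128685653, plus strand: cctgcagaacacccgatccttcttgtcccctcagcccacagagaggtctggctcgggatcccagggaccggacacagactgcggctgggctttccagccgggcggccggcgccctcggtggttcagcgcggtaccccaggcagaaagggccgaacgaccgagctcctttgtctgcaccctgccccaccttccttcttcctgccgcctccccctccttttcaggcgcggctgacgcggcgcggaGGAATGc
Fhl2, chr1:43163962-43164211, minus strand: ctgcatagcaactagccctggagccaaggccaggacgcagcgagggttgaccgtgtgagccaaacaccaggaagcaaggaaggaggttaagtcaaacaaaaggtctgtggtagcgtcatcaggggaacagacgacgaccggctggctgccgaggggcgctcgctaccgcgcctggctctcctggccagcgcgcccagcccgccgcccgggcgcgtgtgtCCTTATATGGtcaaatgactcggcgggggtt
Fermt2, chr14:45530066-45530315, minus strand: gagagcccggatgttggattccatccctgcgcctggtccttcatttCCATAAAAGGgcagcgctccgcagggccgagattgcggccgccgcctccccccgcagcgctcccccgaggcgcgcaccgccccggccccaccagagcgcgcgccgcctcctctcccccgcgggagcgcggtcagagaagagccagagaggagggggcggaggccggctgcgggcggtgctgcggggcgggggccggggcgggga
A RefSeq window was found for 27 of the 36 genes, with 35 windows in all, since a gene can have several starts. The CArG box, counted on both strands, was present in 3 of the 35 member windows and in 1.47% of all 32851 windows. Those 3 windows belonged to 2 members, Fhl2 (first base at position -31 from the start) and Fermt2 (position -204). The MCAT element (CATTCC, either strand) was present in 3 of the 35 member windows, of the 3 members Itga10, Itgb1 and Lpp, and in 12.6% of all windows. In Itgb1 the match, on the minus strand, began at position -7. The SMAD element (GTCTAGAC, either strand) was present for 0 members and in 0.167% of all windows. No member held more than 1 of the 3 motifs. A match describes letters in a window and no binding.

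The first question was how far the integrin and adhesion genes differed with TGFB, in cells given GFP virus and in cells given Cre virus. Hyal2 counts were lower but still present after Cre virus, at 7.62 to 13.5 CPM in Cre against 36.6 to 44.5 CPM in GFP cultures. In GFP_TGFB against GFP cultures, 20 of the 36 genes rose and 4 fell (edgeR quasi-likelihood test, adjusted p under 0.05 over all genes tested). Of all genes tested, 55.3% were called in this comparison, 26.6% higher and 28.6% lower. The median log2 fold change was 0.51 over the 36 genes and -0.024 over all genes. Because the 36 genes were chosen with earlier results of these data known, setting them against all genes describes and does not test. In Cre_TGFB against Cre cultures, 22 rose and 4 fell, where 56.5% of all genes were called, 27.5% higher and 29% lower. There the median was 0.44 over the 36 genes and -0.004 over all genes. With the replicate number as a block in the same test, 24 rose and 4 fell in the GFP pair, where 61.9% of all genes were called (29.8% higher, 32.1% lower), and 24 rose and 5 fell in the Cre pair, where 63.6% were called (31% higher, 32.6% lower). The 2 comparisons have no library in common, but they share the same 4 isolates and an estimate of the spread per gene. Of the 36 genes, 24 passed in both and 10 in neither. How many of all genes passed in both was not counted.

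Of the 17 integrin subunits, 8 rose and 4 fell in each comparison, and 10 rose and 4 fell with the replicate block. Of all genes tested, 26.6% rose and 28.6% fell in the GFP pair, and 27.5% rose and 29% fell in the Cre pair. With the block, 29.8% of all genes rose and 32.1% fell in the GFP pair, and 31% rose and 32.6% fell in the Cre pair. Of the 19 adaptors, 12 rose in GFP_TGFB against GFP and 14 in Cre_TGFB against Cre, and 0 fell in either. With the block 14 adaptors rose and 0 fell in the GFP pair, and 14 rose and 1, Tln2, fell in the Cre pair. The difference between subunits and adaptors was not tested. The groupings by ligand and by complex used below were drawn up with the results known, and their counts describe and do not test. The shares of all genes given here stand beside each of those counts. In bulk RNA, fewer cells of a type and less RNA per cell cannot be told apart.

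**Figure D1:**
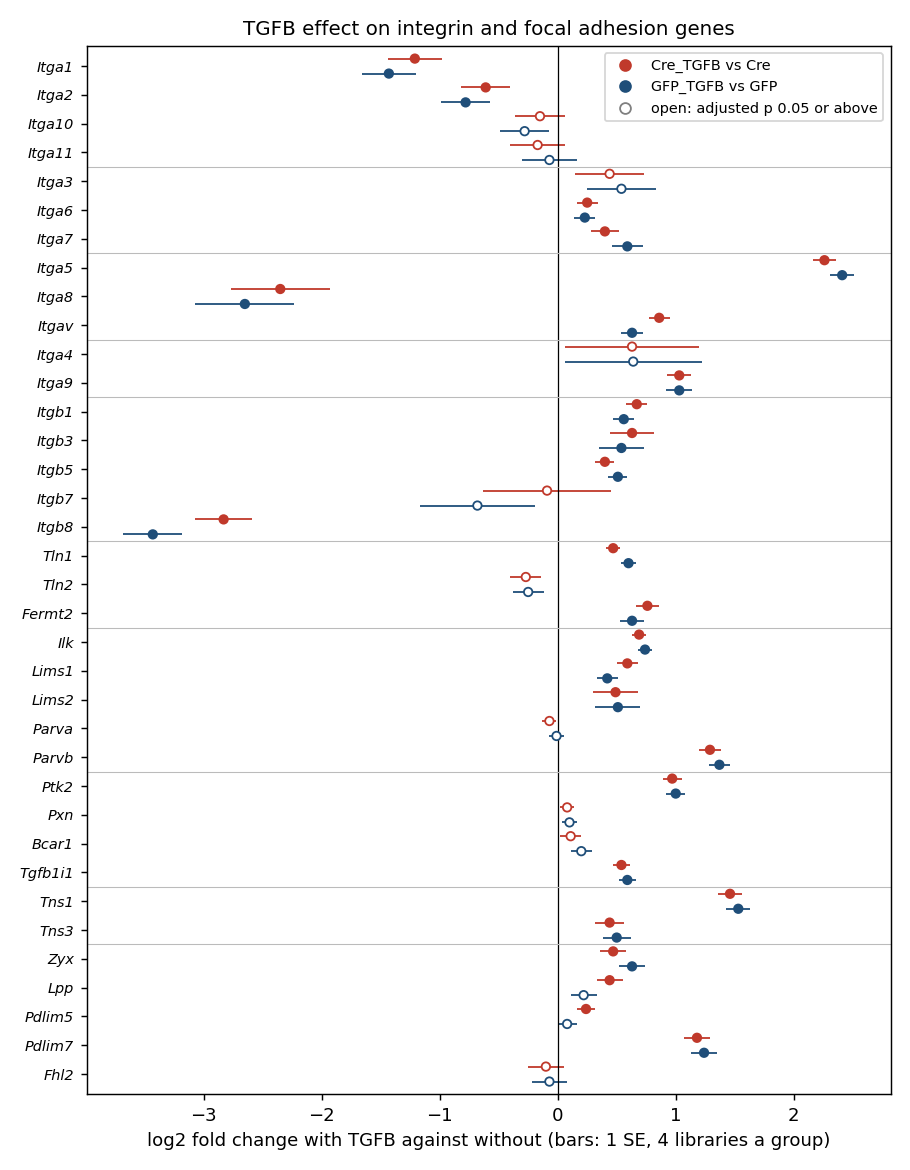
Log2 fold change (x axis) of each of the 36 genes (y axis, grouped by role) in Cre_TGFB against Cre and in GFP_TGFB against GFP, with bars of 1 SE and 4 libraries a group. Filled points passed an adjusted p of 0.05. Itga5 lies farthest to the right, at 2.26 and 2.41, and Itgb8 farthest to the left, at -2.83 and -3.43.

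The RGD-binding alpha subunits held the largest rise and the largest fall among the alpha subunits. Itga5 (ENSMUSG00000000555), the alpha subunit of the main fibronectin receptor, stood at 1696, 1609.8, 1688 and 1930.4 CPM in Cre_TGFB replicates 1 to 4 and at 1806, 1477, 1828 and 2042 CPM in GFP_TGFB replicates. Without TGFB it stood at 368, 331, 292 and 355 CPM in Hyal2, at 365, 381, 319.8 and 382 CPM in Cre and at 349, 377, 300.1 and 323 CPM in GFP cultures. All 8 libraries with TGFB lay above all 12 without it. The rise was 5.30-fold in GFP_TGFB against GFP (log2 fold change 2.41, SE 0.10, edgeR adjusted p = 1.53e-12) and 4.78-fold in Cre_TGFB against Cre (2.26, SE 0.10, edgeR adjusted p = 2.88e-12).

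Itga8 (ENSMUSG00000026768), the alpha subunit of a receptor for nephronectin and fibronectin, was scarce and moved the other way. It stood at 0.988, 1.17, 0.649 and 0.881 CPM in Cre_TGFB replicates and at 1.06, 1.07, 0.612 and 0.903 CPM in GFP_TGFB replicates. Without TGFB it stood at 3.45, 3.73, 9.56 and 6.58 CPM in Hyal2, at 3.25, 2.80, 7.31 and 5.61 CPM in Cre and at 3.71, 2.87, 9.75 and 6.91 CPM in GFP cultures. The groups with and without TGFB did not overlap, and in each of the groups without TGFB the male isolates were above the female ones. Its fall was 6.29-fold in GFP_TGFB against GFP (log2 fold change -2.65, SE 0.42, edgeR adjusted p = 2.91e-05) and 5.11-fold in Cre_TGFB against Cre (-2.35, edgeR adjusted p = 8.66e-05).

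Itgav, the alpha subunit shared by the receptors for vitronectin and latent TGFB, rose in both comparisons. Its levels were 340.1 to 425 CPM in Cre_TGFB and 331 to 387 CPM in GFP_TGFB cultures, against 193 to 222 CPM in Cre and 201 to 243 CPM in GFP cultures. Neither pair of groups overlapped. The log2 fold change was 0.63 (SE 0.09, edgeR adjusted p = 7.55e-06) in GFP_TGFB against GFP and 0.86 (SE 0.09, edgeR adjusted p = 1.56e-07) in Cre_TGFB against Cre.

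Of the 4 collagen-binding alpha subunits, 2 fell and 0 rose in each comparison. Itga1 (ENSMUSG00000042284), a collagen receptor subunit of fibroblasts and smooth muscle, stood at 30.9, 25.6, 35.5 and 32.2 CPM in Cre_TGFB and at 28.8, 24.6, 32.3 and 30.2 CPM in GFP_TGFB replicates. It stood at 61.4, 59.1, 94.8 and 87.9 CPM in Hyal2, at 67.7, 44.5, 93.3 and 82.2 CPM in Cre and at 68.7, 47.1, 101 and 95.1 CPM in GFP replicates. Every library with TGFB was below every library without it. The fall was 2.69-fold in GFP_TGFB against GFP (log2 fold change -1.43, SE 0.23, edgeR adjusted p = 3.49e-05) and 2.31-fold in Cre_TGFB against Cre (-1.21, SE 0.23, edgeR adjusted p = 0.00018).

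Itga2, the collagen receptor subunit also found on platelets, fell at a lower level. It ranged over 3.37 to 4.72 CPM in Cre_TGFB and 3.21 to 6.15 CPM in GFP_TGFB cultures, against 5.59 to 7.57 CPM in Cre and 6.30 to 9.30 CPM in GFP cultures. Its log2 fold change was -0.78 in GFP_TGFB against GFP (edgeR adjusted p = 0.00389) and -0.61 in Cre_TGFB against Cre (edgeR adjusted p = 0.0183). In the Cre pair the call was lost without Cre_TGFB replicate 4 (edgeR adjusted p = 0.0626) or Cre replicate 1 (0.0578). Itga11, the collagen receptor subunit of stromal cells, averaged 293 ± 51.5 CPM in Cre_TGFB and 273 ± 57.6 CPM in GFP_TGFB cultures, against 329 ± 98.1 CPM in Cre and 285 ± 69.1 CPM in GFP cultures (SD, n = 4 each), and was not called in either comparison (edgeR adjusted p = 0.562 for the Cre and 0.828 for the GFP pair). Itga10, known from cartilage, stayed between 1.04 and 1.91 CPM in those 4 groups and was not called.

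Of the 3 laminin-binding subunits, 2 rose and 0 fell in each comparison, and with the replicate block 3 rose. Itga7, the laminin receptor subunit of muscle, averaged 10.1 ± 0.783 CPM in Cre_TGFB and 10.2 ± 0.565 CPM in GFP_TGFB cultures, against 7.67 ± 0.689 CPM in Cre and 6.76 ± 1.07 CPM in GFP cultures (SD, n = 4 each). It rose in both comparisons, with a log2 fold change of 0.59 (edgeR adjusted p = 0.000524) in GFP_TGFB against GFP and 0.40 (edgeR adjusted p = 0.00995) in Cre_TGFB against Cre. Itga6 passed narrowly, with a log2 fold change of 0.23 (edgeR adjusted p = 0.046) and 0.25 (edgeR adjusted p = 0.031) in the GFP and Cre pairs, and its groups overlapped. Its call ended in the GFP pair without GFP_TGFB replicate 1, 2 or 3 or GFP replicate 1, 3 or 4 (edgeR adjusted p = 0.0723 to 0.196) and in the Cre pair without Cre_TGFB replicate 1, 2 or 3 or Cre replicate 1, 2 or 3 (edgeR adjusted p = 0.053 to 0.0942).

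For Itga3 and Itga4 the isolates lay far apart. Itga3, a laminin receptor subunit, stood at 16, 20.4, 11.5 and 11 CPM in Cre_TGFB and 14, 17.5, 10.2 and 10.1 CPM in GFP_TGFB replicates, against 12, 15.7, 7.94 and 7.76 CPM in Cre and 10.7, 12.5, 7.21 and 5.18 CPM in GFP replicates. The groups overlapped, while within each of the 4 isolates the culture with TGFB was the higher one. The fit without a replicate block did not call it in GFP_TGFB against GFP (log2 fold change 0.54, SE 0.29, edgeR adjusted p = 0.125), and the fit with the replicate number as a block did (0.57, SE 0.08, edgeR adjusted p = 7.94e-06). In Cre_TGFB against Cre the values were 0.44 (SE 0.29, edgeR adjusted p = 0.204) without the block and 0.46 (SE 0.08, edgeR adjusted p = 6.56e-05) with it.

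Itga4, whose receptors bind VCAM1 and fibronectin, had the same layout. It stood at 8.48, 10.8, 5.87 and 3.37 CPM in Cre_TGFB and 8.56, 14.6, 4.95 and 3.71 CPM in GFP_TGFB replicates, against 5.59, 8.21, 2.10 and 2.37 CPM in Cre and 5.47, 9.77, 2.09 and 3.0 CPM in GFP replicates. The groups overlapped, and the TGFB culture was again the higher one in all 4 isolates of both pairs. Without the block, edgeR gave an adjusted p of 0.361 in GFP_TGFB against GFP and 0.364 in Cre_TGFB against Cre; with the block it gave 0.00507 (log2 fold change 0.67) and 0.00179 (0.76).

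Itga9 (ENSMUSG00000039115), whose receptor binds tenascin-C and other matrix proteins, rose about as much in both comparisons. It stood at 137, 119, 153 and 158 CPM in Cre_TGFB and 135, 109, 156 and 155 CPM in GFP_TGFB replicates. Without TGFB it stood at 68.2, 65.7, 69.1 and 71.6 CPM in Hyal2, at 72.3, 60.0, 67.2 and 77.9 CPM in Cre and at 70.2, 64.4, 68.3 and 70.0 CPM in GFP replicates. The libraries with and without TGFB were fully apart. The rise was 2.04-fold in both pairs (log2 fold change 1.03, edgeR adjusted p = 1.39e-07 in each).

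**Figure D2:**
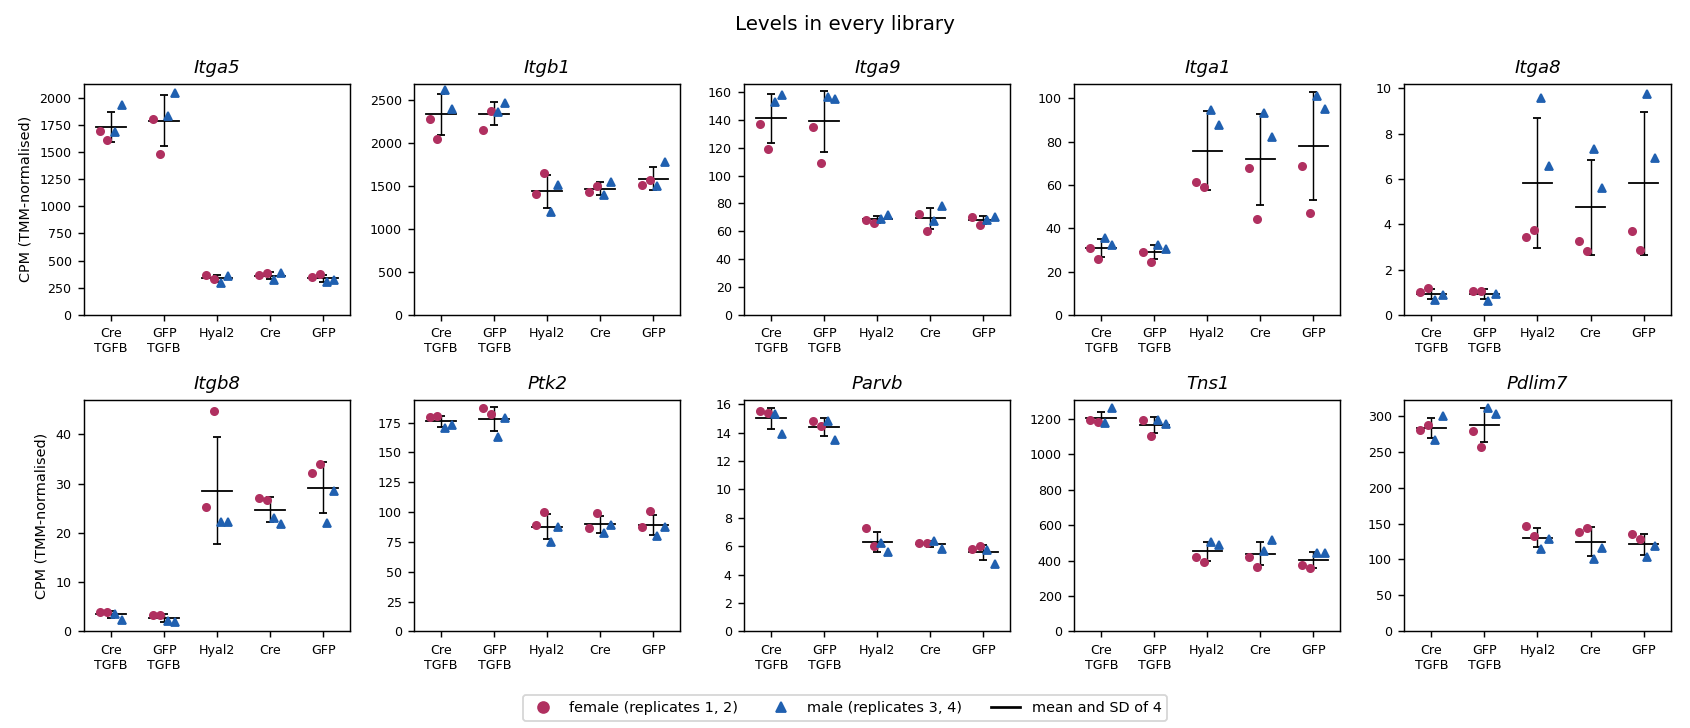
TMM-normalised CPM (y axis, from 0) of 10 genes in every library of the Cre_TGFB, GFP_TGFB, Hyal2, Cre and GFP groups, with female isolates as circles, male isolates as triangles, and lines for the mean and SD of 4 libraries. In the Itga5 panel the 8 libraries with TGFB lie between 1477 and 2042 CPM and the 12 without it between 292 and 382 CPM, and in the Itgb8 panel the order is reversed.

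Among the 5 beta subunits, 3 rose and 1 fell in each comparison. Itgb1 (ENSMUSG00000025809), the partner of most alpha subunits named above, stood at 2275, 2040.2, 2614 and 2385 CPM in Cre_TGFB and 2143, 2373, 2358 and 2462 CPM in GFP_TGFB replicates. It stood at 1404, 1650.3, 1193 and 1503 CPM in Hyal2, at 1425, 1501, 1386 and 1547 CPM in Cre and at 1504, 1561, 1494 and 1772 CPM in GFP replicates. All libraries with TGFB were above those without it. The log2 fold change was 0.56 (edgeR adjusted p = 3.74e-05, SE 0.09) in GFP_TGFB against GFP and 0.67 (SE 0.09, edgeR adjusted p = 5e-06) in Cre_TGFB against Cre.

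Itgb8 (ENSMUSG00000025321), the beta subunit of a receptor known for releasing active TGFB from its latent complex, had the largest fall of the 36 genes. It stood at 3.89, 3.99, 3.6 and 2.33 CPM in Cre_TGFB and 3.33, 3.40, 2.04 and 1.95 CPM in GFP_TGFB replicates. Without TGFB it stood at 25.2, 44.8, 22.3 and 22.3 CPM in Hyal2, at 27.1, 26.6, 23.1 and 21.9 CPM in Cre and at 32.2, 33.9, 22 and 28.6 CPM in GFP replicates. The libraries with TGFB, with 80 to 303 counts each, lay far below all others. The fall was 10.8-fold in GFP_TGFB against GFP (log2 fold change -3.43, SE 0.25, edgeR adjusted p = 1.39e-09) and 7.09-fold in Cre_TGFB against Cre (-2.83, SE 0.24, edgeR adjusted p = 1.04e-08).

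The other partners of alphav rose modestly. Itgb5, a vitronectin receptor subunit, stood at 1178 to 1374 CPM in Cre_TGFB and 1172 to 1406 CPM in GFP_TGFB cultures, against 841 to 1046 CPM in Cre and 796 to 985 CPM in GFP cultures, with no overlap. Its log2 fold change was 0.51 (edgeR adjusted p = 3.78e-05) in the GFP and 0.40 (edgeR adjusted p = 0.000499) in the Cre pair. Itgb3, the other vitronectin receptor subunit, had log2 fold changes of 0.54 (edgeR adjusted p = 0.019) and 0.63 (edgeR adjusted p = 0.00682) in the GFP and Cre pairs. In the GFP pair its groups overlapped, and its call ended without GFP_TGFB replicate 1 or 2 or GFP replicate 3 or 4 (edgeR adjusted p = 0.0507 to 0.082). Itgb7, a leukocyte integrin subunit, had 2 to 26 counts per library and was not called.

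Per length of transcript, the alpha subunits could be set against each other. CPM were divided by the summed exon length of each gene in an annotation of build GRCm38. On that scale Itga5 made up 74.4 ± 1.41% of the summed alpha subunit level in Cre_TGFB and 76.1 ± 1.39% in GFP_TGFB cultures, against 39.5 ± 4.62% in Hyal2, 41.8 ± 6.24% in Cre and 41.5 ± 5.78% in GFP cultures (SD, n = 4 each). The share ranges were 72.4 to 75.8% and 74.7 to 77.3% with TGFB, and no library without it passed 50.5%. Itga11 made up 12 ± 1.20% in Cre_TGFB and 11.1 ± 1.36% in GFP_TGFB cultures, against 36.4 ± 6.89% in Hyal2, 35.6 ± 7.22% in Cre and 33.4 ± 6.85% in GFP cultures. Without TGFB the ranges of Itga5 and Itga11 overlapped in each of the 3 groups, at 36.6 to 49.0% for Itga5 and 24.4 to 39.2% for Itga11 in GFP cultures.

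The level of Itga11 itself was 57.1 ± 10.0 CPM per kb in Cre_TGFB and 53.1 ± 11.2 CPM per kb in GFP_TGFB cultures, against 64.0 ± 19.1 CPM per kb in Cre and 55.6 ± 13.5 CPM per kb in GFP cultures, so that its lower share went with a larger sum. The sum of all 12 alpha subunits was 472 ± 40 CPM per kb in Cre_TGFB and 476 ± 56.1 CPM per kb in GFP_TGFB cultures, against 173 ± 15.8 in Hyal2, 177 ± 20.9 in Cre and 166 ± 8.13 CPM per kb in GFP cultures. Itgav came after Itga11 in the order, with 7.61 ± 0.573% in Cre_TGFB and 7.04 ± 1.42% in GFP_TGFB cultures, against 12.3 ± 2.31% in Hyal2, 11.2 ± 0.748% in Cre and 12.9 ± 1.3% in GFP cultures. Itga9 followed, at 3.78 to 5.36% on average. Each of the other 8 alpha subunits averaged at most 2.51%.

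Among the beta subunits, Itgb1 and Itgb5 made up nearly all of the summed level. Itgb1 made up 60.8 ± 3.53% of the summed beta level per length in Cre_TGFB and 60.7 ± 2.97% in GFP_TGFB cultures, against 55.9 ± 3.75% in Hyal2, 56.3 ± 1.97% in Cre and 59.6 ± 2.87% in GFP cultures (SD, n = 4 each). Itgb5 made up 38.1 ± 3.31% in Cre_TGFB and 38.2 ± 2.94% in GFP_TGFB cultures, against 42.6 ± 3.90% in Hyal2, 42.3 ± 2.00% in Cre and 38.8 ± 2.67% in GFP cultures. Itgb3 averaged 1.03 to 1.12% in the 5 groups. Itgb8 made up 0.0335 ± 0.00817% in Cre_TGFB and 0.0258 ± 0.00804% in GFP_TGFB cultures, against 0.409 ± 0.134% in Hyal2, 0.35 ± 0.0372% in Cre and 0.404 ± 0.0626% in GFP cultures, and no library with TGFB overlapped one without. Shares are a description and were not tested.

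**Figure D3:**
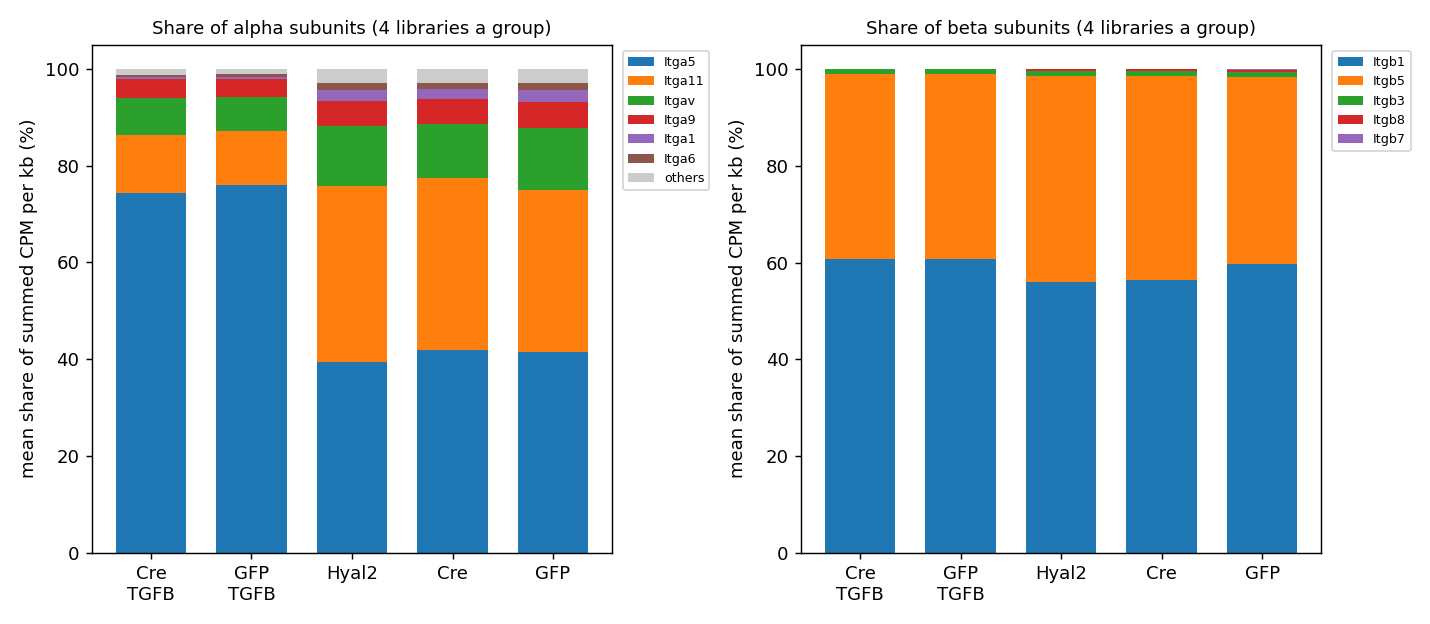
Mean share (y axis, percent) of each alpha subunit (left) and beta subunit (right) in the summed CPM per kb of its kind, in the Cre_TGFB, GFP_TGFB, Hyal2, Cre and GFP groups of 4 libraries. Itga5 fills 74.4% and 76.1% of the alpha bars with TGFB and 39.5 to 41.8% of those without, while Itgb1 and Itgb5 fill nearly all of each beta bar.

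On the cytoplasmic side, the activators of integrins were higher with TGFB in 2 of 3 cases. Talin 1 (Tln1), which binds the beta tail and actin, averaged 830.1 ± 40.3 CPM in Cre_TGFB and 834 ± 40.8 CPM in GFP_TGFB cultures, against 601 ± 29.8 CPM in Cre and 549 ± 28 CPM in GFP cultures (SD, n = 4 each). It rose by a log2 fold change of 0.60 (edgeR adjusted p = 6.06e-08) in the GFP and 0.47 (edgeR adjusted p = 1.59e-06) in the Cre pair. Fermt2, which encodes kindlin-2, rose by 0.63 (edgeR adjusted p = 2.49e-05) and 0.76 (edgeR adjusted p = 2.76e-06) in the same order of pairs. Talin 2 (Tln2) did not pass in either pair, with log2 fold changes of -0.25 (edgeR adjusted p = 0.112) and -0.27 (edgeR adjusted p = 0.0801), and passed in Cre_TGFB against Cre with the replicate block (-0.26, edgeR adjusted p = 0.038).

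Of the 5 genes of the ILK, PINCH and parvin complex, 4 rose and 0 fell in each comparison. Parvb (ENSMUSG00000022438), an actin-binding parvin, stood at 15.5, 15.4, 15.3 and 13.9 CPM in Cre_TGFB and 14.8, 14.5, 14.8 and 13.5 CPM in GFP_TGFB replicates. It stood at 7.29, 6.04, 6.25 and 5.59 CPM in Hyal2, at 6.21, 6.20, 6.37 and 5.82 CPM in Cre and at 5.78, 5.99, 5.72 and 4.75 CPM in GFP replicates. The libraries with TGFB were all above those without. The rise was 2.59-fold in GFP_TGFB against GFP (log2 fold change 1.37, SE 0.09, edgeR adjusted p = 2.36e-10) and 2.45-fold in Cre_TGFB against Cre (1.29, SE 0.09, edgeR adjusted p = 4.72e-10).

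The sister gene Parva was far more abundant and was not called. Per length, Parva averaged 44.2 CPM per kb in Cre_TGFB and 43.8 CPM per kb in GFP_TGFB cultures, where Parvb averaged 3.41 and 3.27 CPM per kb. Parva levels were 449 ± 10.1 CPM in Cre_TGFB and 445 ± 13.3 CPM in GFP_TGFB cultures, against 473 ± 42.2 CPM in Cre and 448 ± 16.4 CPM in GFP cultures (SD, n = 4 each), and the log2 fold change in the GFP pair was -0.01 (edgeR adjusted p = 0.927, SE 0.06).

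For Ilk, the scaffold of the complex, the rise in log2 units was 0.74 in GFP_TGFB against GFP (edgeR adjusted p = 5.85e-09, SE 0.06) and 0.69 in Cre_TGFB against Cre (edgeR adjusted p = 1.65e-08, SE 0.06). Its levels were 365 to 409 CPM in Cre_TGFB and 369 to 435 CPM in GFP_TGFB cultures, against 231 to 253 CPM in Cre and 232 to 245 CPM in GFP cultures, without overlap. The PINCH gene Lims1 rose by 0.42 (edgeR adjusted p = 0.000392) in the GFP pair and 0.59 (edgeR adjusted p = 1.16e-05) in the Cre pair. The other PINCH gene, Lims2, rose by 0.51 (edgeR adjusted p = 0.0298) and 0.49 (edgeR adjusted p = 0.0365), with overlapping groups. Its call in the GFP pair ended without GFP_TGFB replicate 1 (edgeR adjusted p = 0.124), GFP replicate 2 (0.0903) or GFP replicate 3 (0.0928), and in the Cre pair without Cre_TGFB replicate 1 (0.113), Cre_TGFB replicate 2 (0.10), Cre replicate 2 (0.0647) or Cre replicate 3 (0.122).

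Of the 4 signalling scaffolds, 2 rose. Ptk2 (ENSMUSG00000022607), focal adhesion kinase, stood at 179.6, 180.2, 170.2 and 173 CPM in Cre_TGFB and 187, 182, 163 and 179 CPM in GFP_TGFB replicates. It stood at 89.0, 100, 74.9 and 87.3 CPM in Hyal2, at 86.9, 99.4, 82.8 and 89.1 CPM in Cre and at 87.2, 101, 80.2 and 87.6 CPM in GFP replicates. No library with TGFB overlapped one without. The rise was 2.00-fold in GFP_TGFB against GFP (log2 fold change 1.00, SE 0.08, edgeR adjusted p = 8.44e-09) and 1.96-fold in Cre_TGFB against Cre (0.97, SE 0.08, edgeR adjusted p = 1.2e-08).

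Tgfb1i1, which encodes Hic-5, a paxillin relative first found as a TGFB-induced gene, rose by a log2 fold change of 0.59 (edgeR adjusted p = 5.81e-07) and 0.54 (edgeR adjusted p = 2.07e-06) in the GFP and Cre pairs. Paxillin itself (Pxn) averaged 117 ± 3.88 CPM in Cre_TGFB and 111 ± 6.41 CPM in GFP_TGFB cultures, against 110.2 ± 4.21 CPM in Cre and 104 ± 3.04 CPM in GFP cultures (SD, n = 4 each) and was not called. Bcar1, which encodes the scaffold p130Cas, was not called without the block (GFP pair 0.20, edgeR adjusted p = 0.057). With the replicate block it passed in GFP_TGFB against GFP (0.20, edgeR adjusted p = 0.00422) and not in Cre_TGFB against Cre (0.11, edgeR adjusted p = 0.0958).

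Both tensins, which tie integrin tails to actin, rose in both comparisons. Tns1 (ENSMUSG00000055322) stood at 1192, 1180.1, 1177 and 1259.8 CPM in Cre_TGFB and 1194, 1100.3, 1195 and 1172 CPM in GFP_TGFB replicates. It stood at 418, 394, 507 and 489.5 CPM in Hyal2, at 421, 362, 452 and 517 CPM in Cre and at 372, 360.2, 442 and 442 CPM in GFP replicates. The gap between the lowest library with TGFB and the highest without it was wider than the spread inside any group. Tns1 rose 2.88-fold in GFP_TGFB against GFP (log2 fold change 1.53, SE 0.10, edgeR adjusted p = 4.03e-10) and 2.75-fold in Cre_TGFB against Cre (1.46, SE 0.10, edgeR adjusted p = 7.93e-10). Tns3 rose by 0.50 (edgeR adjusted p = 0.00143) and 0.44 (edgeR adjusted p = 0.00399) in the GFP and Cre pairs.

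Of the 5 LIM and PDZ-LIM genes, whose products sit on actin bundles and adhesions, 2 rose in the GFP pair and 4 in the Cre pair. Pdlim7 (ENSMUSG00000021493), which encodes enigma, stood at 279.5, 287, 266 and 299.7 CPM in Cre_TGFB and 279, 257, 311 and 302 CPM in GFP_TGFB replicates. It stood at 147, 132, 114 and 128 CPM in Hyal2, at 138, 144, 101 and 116 CPM in Cre and at 136, 128, 103 and 119 CPM in GFP replicates. The libraries with TGFB lay apart from and above the rest. Pdlim7 rose 2.37-fold in GFP_TGFB against GFP (log2 fold change 1.24, SE 0.11, edgeR adjusted p = 1.51e-08) and 2.26-fold in Cre_TGFB against Cre (1.18, SE 0.11, edgeR adjusted p = 2.95e-08).

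Zyxin (Zyx), a mechanosensitive adhesion protein, rose by a log2 fold change of 0.63 (edgeR adjusted p = 0.000106) and 0.47 (edgeR adjusted p = 0.00149) in the GFP and Cre pairs. Its relative Lpp passed in Cre_TGFB against Cre (0.44, edgeR adjusted p = 0.00301) and not in GFP_TGFB against GFP (0.22, edgeR adjusted p = 0.109), where the replicate block brought it past the threshold (0.22, edgeR adjusted p = 0.0237). Pdlim5 likewise passed in the Cre pair (0.24, edgeR adjusted p = 0.0115) and not in the GFP pair (0.08, edgeR adjusted p = 0.406). The test of the difference between the pairs called neither gene, at 0.22 (SE 0.16) for Lpp and 0.16 (SE 0.11) for Pdlim5, each with edgeR adjusted p = 1.0.

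Fhl2, a LIM protein abundant in heart muscle and the member with a CArG box at position -31, was not called. It averaged 245 ± 19.2 CPM in Cre_TGFB and 246 ± 29.6 CPM in GFP_TGFB cultures, against 262 ± 41.0 CPM in Cre and 258 ± 50.9 CPM in GFP cultures (SD, n = 4 each). Its log2 fold change was -0.07 (SE 0.15, edgeR adjusted p = 0.718) in the GFP pair. Fermt2, whose window also held the box, was among the genes that rose.

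Other genes of the adhesion plaque, from a list of 45 partners of which 44 were tested, were called in both directions. In GFP_TGFB against GFP 21 rose and 11 fell, with a median log2 fold change of 0.12, where 26.6% of all genes rose and 28.6% fell. In Cre_TGFB against Cre 21 rose and 12 fell, with a median of 0.09, where 27.5% of all genes rose and 29% fell. Whether the partners differ from the 36 members in this was not tested. The largest rises in the GFP pair were in Pdlim1 (2.27, edgeR adjusted p = 1.51e-11), Pdlim4 (2.18, edgeR adjusted p = 3.6e-07) and Ptk2b, the kinase related to Ptk2 (1.62, edgeR adjusted p = 4.1e-09). The largest falls were in Pdlim3 (-2.68, edgeR adjusted p = 4.36e-06), the Cas family scaffold Efs (-2.60, edgeR adjusted p = 6.53e-05) and the LIM gene Fhl1 (-1.46, edgeR adjusted p = 3.28e-10).

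Markers of other cell types also differed with TGFB. The 6 endothelial markers summed to 15.5 to 23.8 CPM in Cre_TGFB and 16.2 to 21.1 CPM in GFP_TGFB libraries, against 35.5 to 38.3 CPM in Hyal2, 37.7 to 42.8 CPM in Cre and 36.7 to 41.3 CPM in GFP libraries. In GFP_TGFB against GFP 3 of the 6 fell and 0 rose, and of the 8 fibroblast markers 5 fell and 1 rose. In Cre_TGFB against Cre 4 of the 6 fell and 0 rose, and of the 8 fibroblast markers again 5 fell and 1 rose. Of all genes tested, 28.6% fell and 26.6% rose in the GFP pair, and 29% fell and 27.5% rose in the Cre pair. The 9 leukocyte markers, of which 7 were tested, summed to 105 to 261 CPM in Cre_TGFB and 110.1 to 269.5 CPM in GFP_TGFB libraries, against 159.9 to 355 CPM in Hyal2, 153 to 398 CPM in Cre and 179 to 410.5 CPM in GFP libraries, with 3 lower and 0 higher in the GFP pair and Cd3e at 3 counts or fewer. Of the 6 pericyte and smooth muscle markers 2 rose and 2 fell in the GFP pair and 2 rose and 4 fell in the Cre pair, and they summed to 104 to 116 CPM in Cre_TGFB and 100.4 to 112 CPM in GFP_TGFB libraries, against 110.4 to 199 CPM in Hyal2, 98.3 to 179.7 CPM in Cre and 98.1 to 168 CPM in GFP libraries. The mesothelial markers summed to 0.886 to 2.45 CPM in Cre_TGFB and 1.39 to 3.3 CPM in GFP_TGFB libraries, against 2.15 to 3.71 CPM in Hyal2, 1.64 to 4.56 CPM in Cre and 1.55 to 3.99 CPM in GFP libraries, and of the 4 tested 2 fell and 0 rose in the GFP pair and 1 fell and 0 rose in the Cre pair. The Schwann cell markers summed to 2.2 to 3.6 CPM in Cre_TGFB and 1.66 to 3.6 CPM in GFP_TGFB libraries, against 5.47 to 7.78 CPM in Hyal2, 5.68 to 7.26 CPM in Cre and 5.88 to 7.48 CPM in GFP libraries, without overlap, and of the 3 tested 1 fell and 0 rose in the GFP pair and 1 fell and 1 rose in the Cre pair. The 3 platelet markers summed to 2.36 to 3.95 CPM in Cre_TGFB and 2.04 to 3.66 CPM in GFP_TGFB libraries, against 10.3 to 15 CPM in Hyal2, 10.2 to 17.5 CPM in Cre and 11.1 to 14.7 CPM in GFP libraries, with Gp9 at 3 counts or fewer. Of the 2 platelet markers tested, 2 fell and 0 rose in each pair. Of the 2 cardiomyocyte markers tested, 1 fell and 0 rose in each pair, and of the 7 leukocyte markers 2 fell and 0 rose in the Cre pair. The part of these cell types in the changes of the members was not tested.

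The second question was whether the adhesion genes differed with the Cre virus, which lowered Hyal2 counts without ending them, or with the Hyal2 virus. In Cre_TGFB against GFP_TGFB, 0 of 36 were called by edgeR, with 0 at an unadjusted p under 0.05, and 0.0064% of all genes were called. In Cre against GFP 0 of 36 were called, with 2 at an unadjusted p under 0.05 and 0.0064% of all genes called. In Hyal2 against GFP 0 of 36 were called, with 1 at an unadjusted p under 0.05 and 0.0064% of all genes called. In Hyal2 against Cre 0 of 36 were called, with 0 at an unadjusted p under 0.05 and 0.0128% of all genes called. DESeq2 also called 0 members in each of these 4 comparisons, in the order given with 0.00966%, 0.183%, 0.00322% and 0.589% of all genes called, and limma-voom called 0 members with at most 0.0128% of all genes called. With the replicate block edgeR called 0 members in each, with 0.0064%, 0.269%, 0.0064% and 0.992% of all genes called and 2, 6, 5 and 2 members at an unadjusted p under 0.05.

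The median log2 fold changes over the 36 genes were 0.01 in Cre_TGFB against GFP_TGFB, 0.02 in Cre against GFP, 0.02 in Hyal2 against GFP and 0.01 in Hyal2 against Cre, where the medians of all genes lay between -0.004 and 0.005. For abundant members the fits were narrow. Itga5 differed by -0.05 (SE 0.10) in Cre_TGFB against GFP_TGFB, by 0.10 (SE 0.10) in Cre against GFP and by -0.11 (SE 0.10) in Hyal2 against Cre. Itgb1 differed by -0.11 (SE 0.09) in Cre against GFP and by -0.14 (SE 0.09) in Hyal2 against GFP. A p that misses the threshold does not show that the levels were equal.

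**Figure D4:**
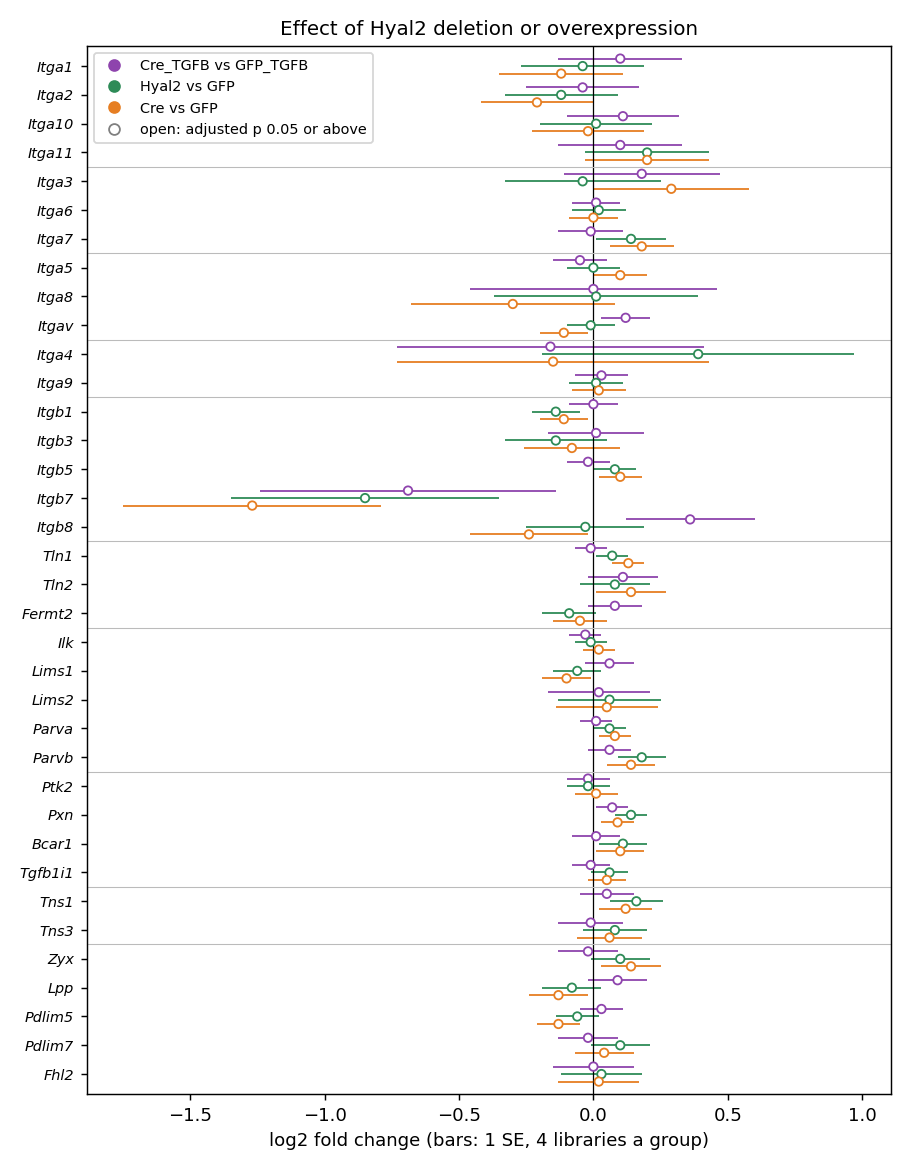
Log2 fold change (x axis) of the 36 genes (y axis, grouped by role) in Cre_TGFB against GFP_TGFB, Hyal2 against GFP and Cre against GFP, with bars of 1 SE and 4 libraries a group. All points are open, that is, none passed an adjusted p of 0.05, and the widest bars belong to Itga4 and to Itgb7, with 2 to 26 counts per library.

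The members with the smallest p in these comparisons, in the fit without the replicate block, were as follows. In Cre_TGFB against GFP_TGFB they were Itgb8 (log2 fold change 0.36, SE 0.25), Itgav (0.12, SE 0.09) and Itgb7 (-0.69, SE 0.55), each with edgeR adjusted p = 1.0. In Cre against GFP they were Itgb7 (-1.27, SE 0.48), Tln1 (0.13, SE 0.06) and Pdlim5 (-0.13, SE 0.08), each with edgeR adjusted p = 0.926. Itgb7 had 10, 10, 2 and 9 counts in Cre replicates, against 11, 26, 6 and 13 counts in GFP replicates, so that its value rests on few reads. In Hyal2 against GFP they were Pxn (0.14, SE 0.06), Parvb (0.18, SE 0.09) and Itgb7 (-0.85, SE 0.50), each with edgeR adjusted p = 1.0. In Hyal2 against Cre they were Itgav (0.10, SE 0.09), Itga3 (-0.33, SE 0.29) and Itga5 (-0.11, SE 0.10), each with edgeR adjusted p = 1.0.

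With the replicate block, Itga3 had the smallest p of the members in both comparisons of Cre cultures without TGFB. It differed by 0.29 (SE 0.08, edgeR adjusted p = 0.173) in Cre against GFP and by -0.30 (SE 0.08, edgeR adjusted p = 0.139) in Hyal2 against Cre. The Cre culture held more Itga3 than the GFP culture of the same isolate in 4 of 4 isolates, and the Hyal2 culture held less than the Cre culture in 4 of 4. The 2 comparisons share the Cre libraries, and neither value passed the threshold. In Cre_TGFB against GFP_TGFB, Itga3 differed by 0.18 with the block (SE 0.08, edgeR unadjusted p = 0.0356) and was not called. There too the Cre_TGFB culture held more in 4 of 4 isolates. Itga11 had the smallest p with the block in Hyal2 against GFP (0.19, SE 0.07, edgeR adjusted p = 0.892). Itga4 came after Itga3 in Hyal2 against Cre (0.52, SE 0.19, edgeR adjusted p = 0.639). The Hyal2 culture held more Itga4 than the Cre culture in 4 of 4 isolates, and more than the GFP culture in 4 of 4. None of these values passed the threshold.

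The third question was whether the response to TGFB differed after Cre virus. The interaction, which is the log2 effect in Cre_TGFB against Cre minus that in GFP_TGFB against GFP, called 0 of 36 members and 0.0% of all genes in edgeR, with 0 members at an unadjusted p under 0.05, and DESeq2 and limma-voom also called 0. The smallest p belonged to Itgav (0.23, SE 0.13), Itgb8 (0.60, SE 0.33) and Tln1 (-0.14, SE 0.08), each with edgeR adjusted p = 1.0. With the replicate block 0 members were called and 1 was at an unadjusted p under 0.05, Itgb8, which stood at 0.63 (SE 0.22, edgeR adjusted p = 0.774). Within isolates the log2 difference of Itgb8 with TGFB was -2.79, -2.72, -2.67 and -3.21 in the Cre pairs of replicates 1 to 4 and -3.26, -3.30, -3.41 and -3.85 in the GFP pairs, the smaller fall being in the Cre pair of each of the 4 isolates.

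Female and male isolates could be compared in the size of the TGFB effect, in an edgeR fit that gave each sex in each group its own mean and was added after the data were seen. Each mean rests on 2 isolates, so that sex and isolate cannot be told apart. In GFP_TGFB against GFP, 2 of 36 members differed between the sexes, where 1.38% of all genes did. Itga8 had a log2 effect of -1.62 in female and -3.45 in male isolates, a difference of 1.83 (female minus male, SE 0.38, edgeR adjusted p = 0.0269). The GFP_TGFB levels were close, at 1.06 and 1.07 CPM in female and 0.612 and 0.903 CPM in male cultures, whereas the GFP levels were 3.71 and 2.87 CPM in female and 9.75 and 6.91 CPM in male cultures.

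Tln2 had a log2 effect of -0.52 in female and 0.07 in male isolates, a difference of -0.58 (SE 0.12, edgeR adjusted p = 0.0246). Its GFP_TGFB levels were 119.8 and 111 CPM in female and 116 and 126 CPM in male cultures, and its GFP levels were 161 and 169 CPM in female and 122 and 109 CPM in male cultures. In Cre_TGFB against Cre the same contrast called 0 of 36 members, where 0.128% of all genes passed, with Itga8 at 1.60 (edgeR adjusted p = 0.0746) and Tln2 at -0.37 (edgeR adjusted p = 0.163). There Itga8 had an effect of -1.51 in female and -3.11 in male isolates.

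**Figure D5:**
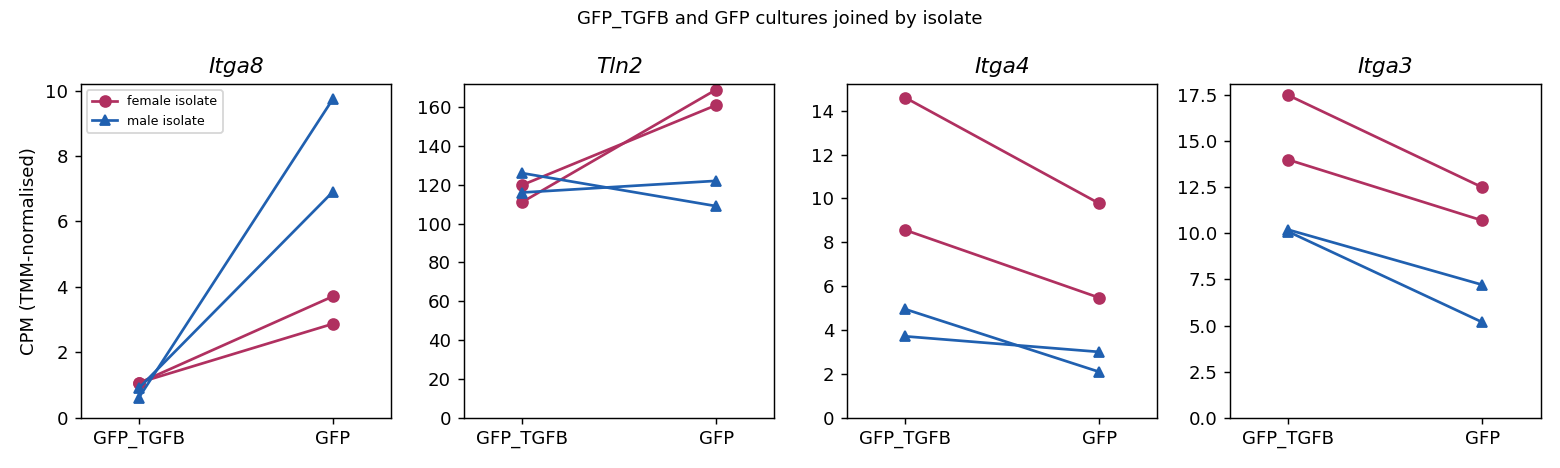
TMM-normalised CPM (y axis, from 0) of Itga8, Tln2, Itga4 and Itga3 in the GFP_TGFB (left) and GFP (right) culture of each isolate, joined by a line, with female isolates as circles and male isolates as triangles. For Itga8 the GFP_TGFB points lie between 0.612 and 1.07 CPM and the GFP points between 2.87 and 9.75 CPM, with both male points on top, while the lines of Itga4 and Itga3 all drop to the right from starting points that differ between isolates.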

How the data were processed

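RNA-seq was made from cultured mouse heart fibroblasts, in 20 libraries. Per the labels' protocols, Trizol and DNase were used for RNA, and libraries were prepared with a NEBNext Ultra II kit. The deposited values are raw counts per Ensembl gene made by the authors with HTSeq 0.10.0, after FastQC 0.10.1, on build GRCm39, per the submitters' processing notes. Which aligner, annotation release and strand setting were used is not given in the sources used here, so reads of overlapping or antisense genes may be shared. All columns matched a labelled sample, with 0 left over. Symbols were found for 52081 of 55414 identifiers in an annotation of build GRCm38, which also gave exon lengths; its coordinates and those of the promoter windows are GRCm38 and were not mixed with the counts.

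The test was that of edgeR 4.0.16 under R 4.3.3 (TMM factors, robust quasi-likelihood F test, one mean per group, all 20 libraries, no block). Genes were kept by filterByExpr (minimum count 10, minimum total 15), and p-values were adjusted over all 15624 genes tested by Benjamini-Hochberg, with calls at 0.05. The SE is the absolute log2 fold change over the square root of F. Log2 differences within isolates used a prior count of 2. Alternatives were a replicate block, DESeq2 1.42.0 and its size factors, limma-voom (limma 3.58.1), library totals, no filter, single libraries or isolates left out, one sex alone and only the groups compared. Only the first of these used a block, so the calls lost with a library left out were lost in fits that ignored the pairing. Same-numbered libraries deviated together from their group means (correlation 0.24 to 0.71), and the library names share a prefix, so the numbers were taken to pair the samples. No replicates held identical counts, and the lowest chi-square per degree of freedom between any of them was 8.14. The labels do not say that the isolates came from separate animals, so p-values measure the spread between these cultures. A floor of 3 counts is 0.0285 to 0.0813 CPM per library, for counting error only. Values of every library are given for members called with TGFB with an absolute log2 fold change of at least 1 and for Itgb1, and by description for those whose call or sex difference needed them; in a comparison without calls the 3 members with the smallest p are named, and from the partner and ligand lists the 3 largest called changes each way. The members, lists and rules were chosen with earlier results of these data known.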

Additional observations from a re-analysis of the deposited data

Results flagged for a closer look

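In 5 of 180 combinations of a member and a group, a single library stood apart from the other 3 of its group by Dixon's criterion at its 95% critical value, which chance gives in about 1 of 20 groups. Itga6 stood at 18.3 CPM in Hyal2 replicate 3, where the others were at 21.4 to 22.1 CPM. Itga10 stood at 1.71 CPM in GFP_TGFB replicate 4, where the others were at 1.04 to 1.11 CPM. Itgb8 stood at 44.8 CPM in Hyal2 replicate 2, where the others were at 22.3 to 25.2 CPM. Parvb stood at 13.9 CPM in Cre_TGFB replicate 4, where the others were at 15.3 to 15.5 CPM. Pdlim5 stood at 261 CPM in GFP replicate 4, where the others were at 213 to 217 CPM.

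The TGFB effect in GFP cultures differed between female and male isolates for 2 members, by a test of the difference itself. For Itga8 the difference was 1.83 on the log2 scale (female minus male, edgeR adjusted p = 0.0269), with a fall in all 4 isolates that was larger in both male isolates. For Tln2 it was -0.58 (edgeR adjusted p = 0.0246), with log2 differences of -0.43 and -0.60 in the female and -0.08 and 0.22 in the male isolates. Neither was called in Cre cultures, and whether the sex differences themselves differ between GFP and Cre cultures was not tested.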

How the results depend on the processing

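Of the members called in a TGFB comparison of the fit reported, 0 changed direction under any alternative run. Members not called were not checked for this. Among them, Tln2 in the GFP pair stood at -0.52 in female libraries alone and at 0.07 in male libraries alone. Members called in GFP_TGFB against GFP numbered 24 in the fit reported, 21 to 25 with one library left out, 22 to 24 with one isolate left out, and 21 without the filter to 28 with the replicate block (24 higher, 4 lower, with 61.9% of all genes called). In Cre_TGFB against Cre they numbered 26, with 24 to 26 without one library, 22 to 24 without one isolate, 23 in female libraries alone, and up to 29 with the replicate block (24 higher, 5 lower, 63.6% of all genes). The share of all genes called was not worked out for fits with a library or isolate left out, a single sex or no filter. The counts from those fits therefore do not set the members apart from other genes. The other comparisons called 0 members under every alternative. With the block, edgeR added Itga3, Itga4, Bcar1 and Lpp in the GFP pair and Itga3, Itga4 and Tln2 in the Cre pair and ended no member's call. Of the members called, 20 of 24 in the GFP pair and 18 of 26 in the Cre pair were called in all 22 fits, a share not worked out for all genes. The exceptions were Itga6, Itga7, Itgb3 and Lims2 in both pairs and Itga2, Tns3, Lpp and Pdlim5 in the Cre pair; Itga7, Tns3, Lpp and Pdlim5 kept their calls when any single library was left out. Scaling by library totals shifted the median of all genes to -0.127 in the GFP pair, and Itga6, Itgb3 and Lims2 were then not called there (edgeR adjusted p = 0.304, 0.0711 and 0.0791). The cause of these losses was not tested. Depth limits Itgb7, at 2 to 26 counts per library.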

Other observations

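Genes of the matrix proteins that integrins bind were called with TGFB in both directions. From a list of 19 ligands, of which 18 were tested, 9 rose and 4 fell in GFP_TGFB against GFP (median log2 fold change 0.31), where 26.6% of all genes rose and 28.6% fell. In Cre_TGFB against Cre 8 rose and 4 fell (median 0.25), where 27.5% of all genes rose and 29% fell. Tnc, which encodes tenascin-C, a ligand of the alpha9 receptor, averaged 5525 ± 714 CPM in GFP_TGFB and 385 ± 107 CPM in GFP cultures (SD, n = 4 each; log2 fold change 3.84, edgeR adjusted p = 9.45e-11). Thrombospondin-1 (Thbs1) averaged 9335 ± 418 CPM in GFP_TGFB and 1601 ± 554 CPM in GFP cultures (2.54, edgeR adjusted p = 7.35e-08). The matricellular gene Ccn2 averaged 7317 ± 799 CPM in GFP_TGFB and 2292 ± 909.6 CPM in GFP cultures (1.67, edgeR adjusted p = 0.000115). On the other side, the collagen gene Col3a1 averaged 7061 ± 905 CPM in GFP_TGFB and 26630.1 ± 6487 CPM in GFP cultures (-1.92, edgeR adjusted p = 2.98e-07). The laminin gene Lama4 changed by -1.53 (edgeR adjusted p = 6.17e-06), and Npnt, which encodes nephronectin, a ligand of the alpha8 receptor, by -1.09 (edgeR adjusted p = 0.00071). None of the 18 was called in Cre_TGFB against GFP_TGFB, Cre against GFP, Hyal2 against GFP or Hyal2 against Cre by edgeR, DESeq2 or limma-voom. At an unadjusted p under 0.05 edgeR had 0 in each without the replicate block and 3, 2, 2 and 1 with it.

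Integrin subunits outside the 36 genes, mostly of blood cells and epithelium, were scarce. Of 9 listed, 6 were tested, and 2 fell and 0 rose in both TGFB comparisons. Of all genes tested, 28.6% fell and 26.6% rose in the GFP pair, and 29% fell and 27.5% rose in the Cre pair. Itgb4, a laminin receptor subunit of epithelium, averaged 0.717 ± 0.296 CPM in GFP_TGFB and 2.50 ± 0.399 CPM in GFP cultures (SD, n = 4 each; log2 fold change -1.80, edgeR adjusted p = 6.98e-06). Itga2b, the platelet fibrinogen receptor subunit, averaged 1.54 ± 0.192 CPM in GFP_TGFB and 4.54 ± 0.583 CPM in GFP cultures (-1.55, edgeR adjusted p = 1.96e-07). With the replicate block 1 rose and 4 fell in the GFP pair, where 29.8% of all genes rose and 32.1% fell. In the Cre pair 1 rose and 3 fell with the block, where 31% of all genes rose and 32.6% fell.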
